A study of Rattus norvegicus with 14 samples.

Results

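The genes described are those of the proteasome, taken by name: all genes whose single symbol begins with Psma, Psmb, Psmc, Psmd, Psme or Psmg, with the probe set of the highest mean standing for a gene. The rule gave 45 of the 14217 genes with a single-symbol probe set, on 59 probe sets, and no measured value entered it. All 45 passed the filter on low signals, and none reached the floor on any array. They are 38 constitutive genes, 5 immunoproteasome genes (Psmb8, Psmb9, Psmb10, Psme1 and Psme2) and 2 genes that match by name, Psmc3ip and Psme3ip1. These 2 encode no subunit. The 38 are 7 alpha and 6 beta subunits of the core, 6 ATPases and 11 further subunits of the regulatory particle, 7 assembly chaperones and the activator Psme4. Psmb6, Psme3, Psma3l and Psmb6l1 lie only on probe sets that carry several symbols and were left out by the rule.

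The proteasome is the protease that degrades ubiquitin-tagged proteins. Its core is a barrel of stacked alpha and beta rings in which Psmb5, Psmb6 and Psmb7 cut the substrate, and a regulatory particle with a ring of ATPases binds, unfolds and feeds in the tagged protein. In immune cells, and in other cells exposed to interferon, Psmb8, Psmb9 and Psmb10 take the places of Psmb5, Psmb6 and Psmb7 in newly built cores, and Psme1 and Psme2 form an alternative cap. The resulting immunoproteasome supplies peptides for presentation on class I molecules. In wasting skeletal muscle the ubiquitin and proteasome route is known as a main path of loss of contractile protein.

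Soleus, a calf muscle of mostly slow fibres that helps to hold posture, was taken from male Sprague Dawley rats and measured on 14 Affymetrix arrays, 1 muscle per array, 12 rats in all. Tenotomy, the cutting of the tendon, was the immobilizing treatment, and all treated muscles were right muscles. Short-term muscles had been tenotomized for 1 week (rats 12 and 13), 2 weeks (rats 25 and 27), 3 weeks (rat 32) or 4 weeks (rat 42), and long-term muscles for 6 weeks (rats 61 and 62), 16 weeks (1 rat) or 22 weeks (1 rat). The 4 controls were left muscles of rats 61 and 62 and of 2 rats with no tenotomized muscle here, so that rats 61 and 62 gave both muscles. The labels give no age for any rat and no sham operation, and no rat gave both a control and a short-term muscle, so a difference between those rats and tenotomy cannot be told apart.

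Markers of soleus fibres were bright on every array: the 14 markers, such as the slow myosin heavy chain Myh7, had summed signals of 97799 to 125513 on the controls, 90548 to 142535 on the short-term and 112345 to 137912 on the long-term arrays. The highest deposited signal of any probe set was 12542, and these markers lay near the top of the range. Changes in fibre content may therefore not show in them. At 1 week 0 of the 14 were higher in rat 12 than in rat 13, with a median log2 difference of -0.59. Other measures did move with the groups. The ratio of 3' to 5' Gapdh probe sets was 1.16 to 1.61 on the short-term arrays against 1.38 to 2.78 on the controls, and the poly-A spike-in signal was 149 to 397 against 83.9 to 123. On the long-term arrays these were 1.38 to 2.78 and 99.1 to 154. Their part in the results below was not tested.

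The promoters of 4 of the 5 immunoproteasome genes are shown, with that of Psmb5, whose subunit Psmb8 replaces. Psme2 is among the 4, although it was not called between short-term and control muscle. The Psme1 promoter was searched as well, held no match and is not printed. Of the 45 genes, 41 had an entry among the 27457 RefSeq promoters of the rat build GRCr8. Each runs from 250 bases before to 50 after the start that the entry uses. For Psmb8, Psmb9 and Psme2 that start differs from the edge of the annotated gene. The Psme2 window lies wholly inside its gene, which spans chr15:33048452-33053055. Both strands were searched for the core of the interferon-stimulated response element, which is GAAA, any 2 bases and GAAA, for TTCNNNGAA, the interferon gamma activated site, and for TGACNNNGC, the core of the antioxidant response element. The first motif was found in 3 of 5 immunoproteasome promoters, 4 of 34 constitutive ones (11.8%) and 3.77% of all promoters. The second was found in 1 of 5, 3 of 34 (8.82%) and 8.68%, and the third in 0 of 5, 7 of 34 (20.6%) and 12.2%. A match describes these letters only, and motif matches in the sequences shown did not overlap each other.

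The windows lie at chr20:4656982-4657281 (minus strand), chr20:4668750-4669049 (plus strand), chr19:50743243-50743542 (minus strand), chr15:33052702-33053001 (minus strand) and chr15:32047330-32047629 (minus strand). Capitals mark the motif matches: TTCCCAGAA of the second motif and TTTCGCTTTC, the first motif on the opposite strand, in Psmb8, GAAAGTGAAA and GAAAGCGAAA in Psmb10, GAAAGCGAAA in Psme2, and TGACGTCGC of the third motif in Psmb5. Psmb9 held no match in this window.
Psmb8: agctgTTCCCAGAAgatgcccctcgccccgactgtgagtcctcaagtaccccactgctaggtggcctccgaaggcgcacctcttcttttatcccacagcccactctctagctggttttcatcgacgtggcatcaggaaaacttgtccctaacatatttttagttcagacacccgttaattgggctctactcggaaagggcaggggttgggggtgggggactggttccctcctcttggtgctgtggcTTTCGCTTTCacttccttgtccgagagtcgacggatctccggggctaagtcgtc
Psmb9: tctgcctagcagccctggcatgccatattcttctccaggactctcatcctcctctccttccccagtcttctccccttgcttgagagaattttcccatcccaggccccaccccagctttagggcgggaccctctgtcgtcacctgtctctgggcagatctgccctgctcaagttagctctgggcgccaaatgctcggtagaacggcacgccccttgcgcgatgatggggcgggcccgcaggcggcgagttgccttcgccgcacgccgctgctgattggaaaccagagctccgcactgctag
Psmb10: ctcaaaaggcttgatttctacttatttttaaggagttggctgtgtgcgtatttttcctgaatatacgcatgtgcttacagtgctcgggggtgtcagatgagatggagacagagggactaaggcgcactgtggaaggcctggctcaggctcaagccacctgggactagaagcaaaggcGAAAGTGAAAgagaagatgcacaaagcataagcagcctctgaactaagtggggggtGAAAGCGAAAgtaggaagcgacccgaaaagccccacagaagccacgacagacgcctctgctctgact
Psme2: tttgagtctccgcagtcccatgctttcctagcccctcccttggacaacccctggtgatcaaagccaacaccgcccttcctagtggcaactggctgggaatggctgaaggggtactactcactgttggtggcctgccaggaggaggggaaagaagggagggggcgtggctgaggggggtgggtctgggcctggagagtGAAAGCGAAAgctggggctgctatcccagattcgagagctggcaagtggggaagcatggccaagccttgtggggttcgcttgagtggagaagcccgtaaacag
Psmb5: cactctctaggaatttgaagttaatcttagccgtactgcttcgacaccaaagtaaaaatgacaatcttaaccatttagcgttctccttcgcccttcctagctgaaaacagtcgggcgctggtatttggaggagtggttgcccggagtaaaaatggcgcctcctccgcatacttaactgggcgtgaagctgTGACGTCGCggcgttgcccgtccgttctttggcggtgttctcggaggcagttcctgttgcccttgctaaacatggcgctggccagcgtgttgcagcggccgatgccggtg

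Immunoproteasome catalytic subunits were higher in muscle tenotomized for 1 to 4 weeks than in control muscle. Psmb8, the interferon-induced subunit that replaces Psmb5, had scaled signals of 66.2, 78.3, 113 and 95.6 on the controls. On the short-term arrays it read 353 and 205 at 1 week, 196 and 249 at 2 weeks, 371 at 3 weeks and 474 at 4 weeks. On the long-term arrays it read 135 and 62.6 at 6 weeks, 88.5 at 16 weeks and 40.5 at 22 weeks. The 6 short-term arrays all lay above the 8 others, which overlapped each other, with the lowest value of all at 22 weeks. Of all tested genes, 11.8% lay higher on every short-term array than on any control. The share lower on every long-term array than on any short-term array was 11.1%. The log2 change from control to short-term muscle was 1.88 (SE 0.31, adjusted p = 4.4e-04), that from short-term to long-term muscle -2.10 (SE 0.31, adjusted p = 2.2e-04).

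All log2 changes are given relative to the median gene of the comparison, while p-values and calls belong to the change as tested in limma. As tested, the median gene changed by -0.12 from control to short-term, 0.12 from short-term to long-term, -0.08 at 1 week and -0.09 at 2 weeks. A gene is called past an adjusted p of 0.05 (Benjamini-Hochberg over 11064 genes). For short-term against control muscle 17.9% of all tested genes were called higher and 26.5% lower. For long-term against short-term muscle 26.2% were higher and 17.5% lower. In whole muscle, more cells of a type and more RNA per cell cannot be told apart.

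Psmb9, the replacement of Psmb6, gave the same picture at a smaller size. Its signals were 112, 119, 127 and 121 on the controls. In short-term muscle it read 392 and 246 at 1 week, 194 and 188 at 2 weeks, 255 at 3 weeks and 331 at 4 weeks. In long-term muscle it read 138 and 119 at 6 weeks, 156 at 16 weeks and 64.8 at 22 weeks. Every short-term array lay above every other array, beside the shares of all genes given for Psmb8. The change was 1.23 (SE 0.24, adjusted p = 0.0019) from control to short-term and -1.31 (SE 0.24, adjusted p = 0.0013) from short-term to long-term.

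Psmb10, the replacement of Psmb7, varied more among the short-term muscles. It read 149, 115, 123 and 136 on the controls. After 1 to 4 weeks of tenotomy it read 235 and 175 at 1 week, 140.0 and 254 at 2 weeks, 175 at 3 weeks and 246 at 4 weeks. After 6 to 22 weeks it read 139.9 and 113 at 6 weeks, 125 at 16 weeks and 133 at 22 weeks. One 2-week array (140.0) lay within the range of the controls, so those groups overlapped, whereas all short-term arrays lay above the long-term ones, with 140.0 and 139.9 as the nearest values. The change was 0.73 (SE 0.17, adjusted p = 0.0096) from control to short-term and -0.77 (SE 0.17, adjusted p = 0.007) from short-term to long-term. The calls of Psmb8 and Psmb9 in both comparisons held under all 7 scalings compared, while those of Psmb10 held under 5 (adjusted p = 0.11 and 0.10 with a common median of all probe sets, 0.21 and 0.14 on the deposited scale).

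Psme1 and Psme2, the subunits of the interferon-induced cap, were not called between short-term and control muscle. Psme1 read 1619, 1332, 1306 and 1564 on the controls. The short-term arrays gave 1839 and 2856 at 1 week, 1570.0 and 1211 at 2 weeks, 1414 at 3 weeks and 1530.3 at 4 weeks. The long-term arrays gave 1623 and 1419.8 at 6 weeks, 1648 at 16 weeks and 1123 at 22 weeks. Both 1-week values lay above the controls, that of rat 13 the farthest, and the values of weeks 2 to 4 overlapped the controls. The change was 0.32 (SE 0.19, adjusted p = 0.41).

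Psme2 read 1049.7, 677, 581 and 589 on the controls. Short-term values were 724 and 1138 at 1 week, 599 and 647 at 2 weeks, 662 at 3 weeks and 749 at 4 weeks. Long-term values were 619 and 621 at 6 weeks, 678 at 16 weeks and 552 at 22 weeks. Here too rat 13 at 1 week was highest, next to 1 control array, and the groups overlapped. The change was 0.19 (SE 0.19, adjusted p = 0.79).

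**Figure D1:**
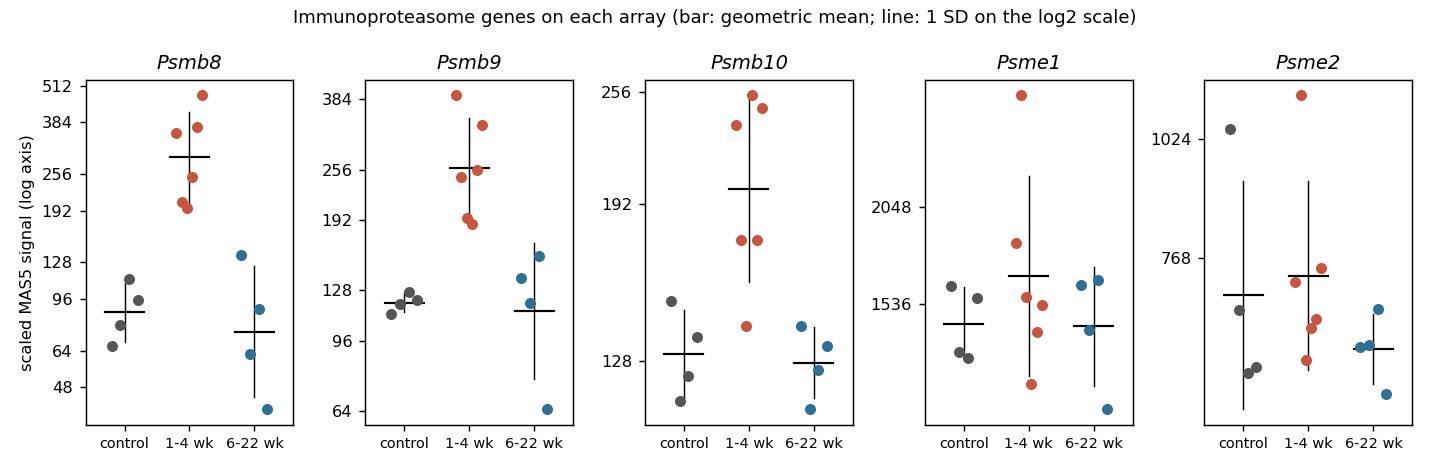
Scaled MAS5 signal on a log axis for the 5 immunoproteasome genes, 1 point per array, by group (controls n = 4, 1 to 4 weeks n = 6, 6 to 22 weeks n = 4); the bar is the geometric mean and the line 1 SD on the log2 scale. Psmb8 and Psmb9 show all 6 short-term arrays above all others, and Psme1 and Psme2 show overlapping groups with rat 13 at 1 week on top. Of all tested genes, 11.8% lay higher on every short-term array than on any control.

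The immunoproteasome genes were also compared by week, with 2 arrays each at 1 and 2 weeks. Between 2 weeks and 1 week 0 of the 5 were called in limma (smallest adjusted p = 0.26). At 1 week, against a background of 9.43% of genes called higher and 13.9% lower, Psmb8 had a change from control of 1.72 (SE 0.34, adjusted p = 0.0068) and Psmb9 of 1.46 (SE 0.20, adjusted p = 0.0014). Psme1 was also called higher, with 0.74 (SE 0.20, adjusted p = 0.033), but this call was lost in 5 of 14 fits that left out an array. A further, lower Psme1 probe set gave -0.11 (adjusted p = 0.83) at 1 week, in a fit over all probe sets in which the chosen one gave 0.70, so the probe sets of that gene disagree. The Psmb8 call was lost without rat 12 (adjusted p = 0.11), a fit in which the 1 array left at 1 week is taken to vary like the other groups. Psmb10 had 0.72 (SE 0.25, adjusted p = 0.087) and Psme2 0.45 (SE 0.25, adjusted p = 0.31), neither past the threshold.

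At 2 weeks 16.2% of genes were called higher and 21.8% lower. Psmb8 (1.44 (SE 0.34, adjusted p = 0.01)) and Psmb9 (0.76 (SE 0.20, adjusted p = 0.022)) were higher than in controls. On the deposited scale neither was called (adjusted p = 0.077 and 0.64), nor was Psmb9 with a common median of all probe sets (0.17). Without rat 27 both calls were lost (adjusted p = 0.098 and 0.090), and without rat 25 that of Psmb9 was (0.063), again with 1 array left at that week. Psmb10 had 0.62 (SE 0.25, adjusted p = 0.11), Psme1 0.02 (SE 0.20, adjusted p = 0.8) and Psme2 -0.09 (SE 0.25, adjusted p = 0.61). The 2-week array of rat 25 set the Psmb10 value: without it the change, of 1 array alone, was 1.09. Over the 10 tenotomized arrays the slope per doubling of time was -0.60 (SE 0.15, adjusted p = 0.032) for Psmb8 and -0.42 (SE 0.10, adjusted p = 0.027) for Psmb9, the members called among 7.38% of all genes called with a negative slope and 8.61% with a positive one. The Psmb8 slope was called under 5 of 7 scalings and lost in 4 of 14 fits without an array, that of Psmb9 called under 6 of 7 and lost in 2. Without the 22-week array the slopes were -0.46 (adjusted p = 0.21) and -0.29 (adjusted p = 0.20).

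In long-term muscle 0 of the 45 genes were called against control in either direction, and 0 of all 11064 genes were in limma. At an unadjusted p under 0.05, 252 genes and 0 members passed. The changes of the 5 immunoproteasome genes lay between -0.21 and -0.01. In rats 61 and 62, which gave both muscles at 6 weeks, right minus left was 0.51 and -0.08 for Psmb8, 0.20 and 0.10 for Psmb9, and 0.05 and -0.40 for Psmb10. Of the 5 genes, 1 (Psmb9) was higher on the tenotomized side in both rats.

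The catalytic subunits were also compared with the partner each replaces, on the same array, which no scaling by a constant can alter. Psmb5, which carries the chymotrypsin-like activity, read 2408, 2571, 2688 and 2149 on the controls. In short-term muscle it read 2068 and 2372 at 1 week, 2167 and 1958 at 2 weeks, 1839.5 at 3 weeks and 1689.8 at 4 weeks. In long-term muscle it read 2234 and 2269 at 6 weeks, 2557 at 16 weeks and 2825 at 22 weeks. Its groups overlapped, with a change of -0.17 (SE 0.12, adjusted p = 0.061) from control to short-term muscle. The log2 difference of Psmb8 and Psmb5 signals was -4.82 ± 0.34 (SD, n = 4) on the controls, -2.78 ± 0.67 (n = 6) on the short-term and -5.05 ± 0.86 (n = 4) on the long-term arrays. It was higher by 2.05 in short-term than in control muscle (exact 2-sided permutation test, p = 0.0048, the smallest that 6 against 4 arrays allow, adjusted p = 0.014 over 6 such tests). From short-term to long-term it changed by -2.27 (exact permutation p = 0.0048, adjusted p = 0.014), and long-term against control it was -0.23 (exact permutation p = 0.71, adjusted p = 0.74). Levels of different probe sets are not comparable, so these differences show unequal change and not the amount of either subunit.

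Psmb7, with the trypsin-like activity, read 3079, 3174, 3450.5 and 3056 on the controls. After 1 to 4 weeks of tenotomy it read 2659 and 3463 at 1 week, 2400.2 and 1887 at 2 weeks, 2185 at 3 weeks and 1639 at 4 weeks. After 6 to 22 weeks it read 3029 and 3312 at 6 weeks, 3113 at 16 weeks and 3485 at 22 weeks. Apart from the 1-week array of rat 13, the short-term values lay below all controls, and the change was -0.35 (SE 0.16, adjusted p = 0.029). The log2 difference of Psmb10 and Psmb7 was -4.61 ± 0.22 (SD, n = 4) on the controls, -3.53 ± 0.63 (n = 6) on the short-term and -4.67 ± 0.18 (n = 4) on the long-term arrays. It was higher by 1.08 in short-term than in control muscle (exact 2-sided permutation p = 0.014, adjusted p = 0.021) and changed by -1.14 from short-term to long-term (exact permutation p = 0.0095, adjusted p = 0.019). After quantile normalization the first was 0.81 with an adjusted p of 0.064 (exact permutation test), and without any 1 control array its adjusted p was 0.054. Between long-term and control muscle it was -0.05 (exact permutation p = 0.74, adjusted p = 0.74).

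**Figure D2:**
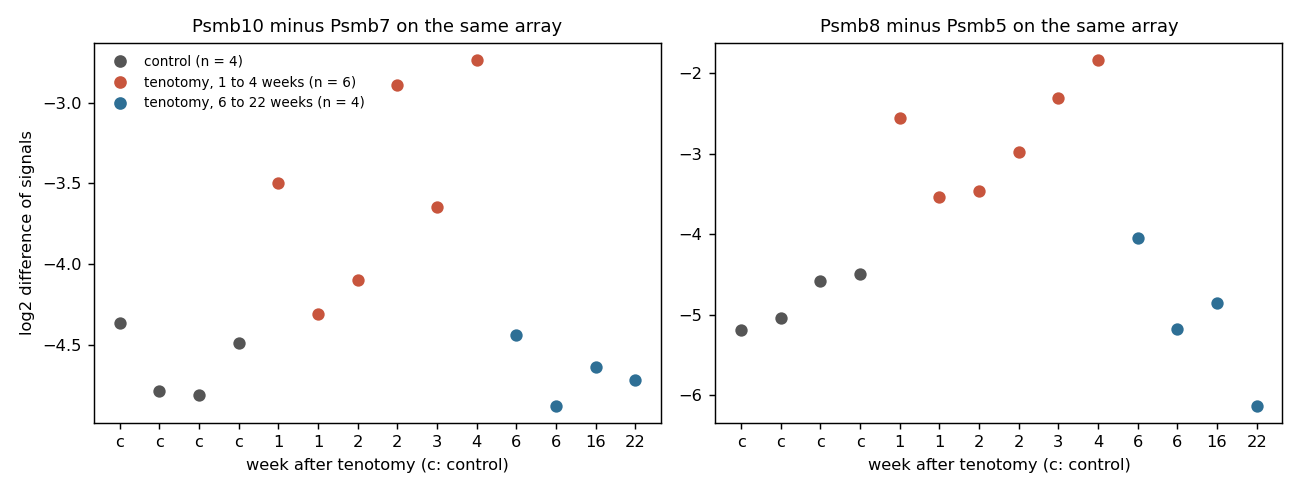
Log2 difference of signals of an immunoproteasome subunit and the subunit it replaces on the same array, 1 point per array, ordered by week (c: control). Psmb8 minus Psmb5 lies between -3.53 and -1.83 on the 6 short-term arrays and at -4.04 or lower on the 8 others, and Psmb10 minus Psmb7 between -4.31 and -2.74 against -4.37 or lower on the controls and -4.44 or lower on the long-term arrays.

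The 38 constitutive genes were not a uniform block. Between short-term and control muscle 10 of 38 were lower (26.3%, beside 26.5% of all tested genes) and 0 higher, with a median change of -0.18 and 33 of 38 changes below the median gene. The share called is near that of all genes. Of the 38 genes, 2 lay lower on every short-term array than on any control, beside 19% of all genes. The count depended on the scaling: 2 genes, Psmg1 and Psmg2, were lower under all 7 scalings, beside 16.7% of all genes, and under quantile normalization the median as tested was -0.04 for the 38 genes and -0.07 for all genes.

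Assembly chaperones help build the core and the regulatory particle and do not stay in the finished protease. Of 7 measured, 4 were lower in short-term than in control muscle. Psmg1, which with Psmg2 forms the chaperone pair that starts the alpha ring, read 781, 710.4, 695 and 608 on the controls. The short-term arrays gave 523 and 574 at 1 week, 469 and 432 at 2 weeks, 436 at 3 weeks and 391 at 4 weeks. The long-term arrays gave 551 and 616 at 6 weeks, 648 at 16 weeks and 653 at 22 weeks. Every short-term value was below every control. The change was -0.46 (SE 0.12, adjusted p = 0.0017), and from short-term to long-term 0.28 (SE 0.12, adjusted p = 0.016).

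Psmg2 read 594, 535, 663 and 417 on the controls. Short-term values were 314 and 434 at 1 week, 335 and 249 at 2 weeks, 319.9 at 3 weeks and 313 at 4 weeks. Long-term values were 424 and 445 at 6 weeks, 435 at 16 weeks and 574 at 22 weeks. The control of rat 61 (417) was lower than the 1-week array of rat 13 (434), so the groups overlapped by 1 array each. The change was -0.63 (SE 0.16, adjusted p = 0.0017), and from short-term to long-term 0.41 (SE 0.16, adjusted p = 0.015).

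Psmg4, a subunit of a further core chaperone, read 970.3, 811, 897 and 728 on the controls. In short-term muscle it read 709 and 694 at 1 week, 631 and 675 at 2 weeks, 594 at 3 weeks and 563 at 4 weeks. In long-term muscle it read 839.9 and 699 at 6 weeks, 711 at 16 weeks and 779.8 at 22 weeks. The short-term values lay below all controls, and the change was -0.28 (SE 0.11, adjusted p = 0.011), called under 5 of 7 scalings. Its partner Psmg3 had 0.04 (adjusted p = 0.73). Of the chaperones of the regulatory particle, Psmd10 had -0.24 (SE 0.14, adjusted p = 0.045), a call made under 2 of 7 scalings and lost in 9 of 14 fits without an array, while Psmd5 (-0.09, adjusted p = 0.38) and Psmd9 (-0.05, adjusted p = 0.33) were not called.

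Among the core subunits, 1 of 7 alpha and 3 of 6 beta subunits were lower in short-term muscle. Psmb2, a beta subunit without catalytic activity, read 1798, 1796, 1999.5 and 1615 on the controls. After 1 to 4 weeks of tenotomy it read 1348 and 1784 at 1 week, 1278 and 951 at 2 weeks, 1318 at 3 weeks and 1036 at 4 weeks. After 6 to 22 weeks it read 1494 and 1624 at 6 weeks, 1813 at 16 weeks and 1579 at 22 weeks. Its groups overlapped through rat 13 at 1 week only, and the change was -0.39 (SE 0.15, adjusted p = 0.012). That call held under 6 of 7 scalings and in all 14 fits without an array. The others were Psma6 (-0.24), Psmb7 (above) and Psmb1 (-0.22), which are named because they make up the count. Each of these 3 was called under 4 of 7 scalings, and the calls were lost in 6, 6 and 9 of 14 fits without an array.

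In the regulatory particle 0 of 6 ATPases and 2 of 11 further subunits were lower. The ATPases Psmc1 to Psmc6 had changes between -0.26 and -0.02, with a smallest adjusted p of 0.12. Psmd12, a scaffold subunit of the lid, had -0.50 (SE 0.19, adjusted p = 0.016) and Psmd6, another lid subunit, -0.28 (SE 0.15, adjusted p = 0.043), the latter lost in 11 of 14 fits without an array. Psmd8, also of the lid, had the highest change of the 38, 0.36 (adjusted p = 0.4). Psme4, an activator that caps the core without ATP, had -0.19 (adjusted p = 0.3). Of the genes that match by name and encode no subunit, Psmc3ip had -0.46 (SE 0.18, adjusted p = 0.017) and Psme3ip1 -0.13 (adjusted p = 0.11).

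**Figure D3:**
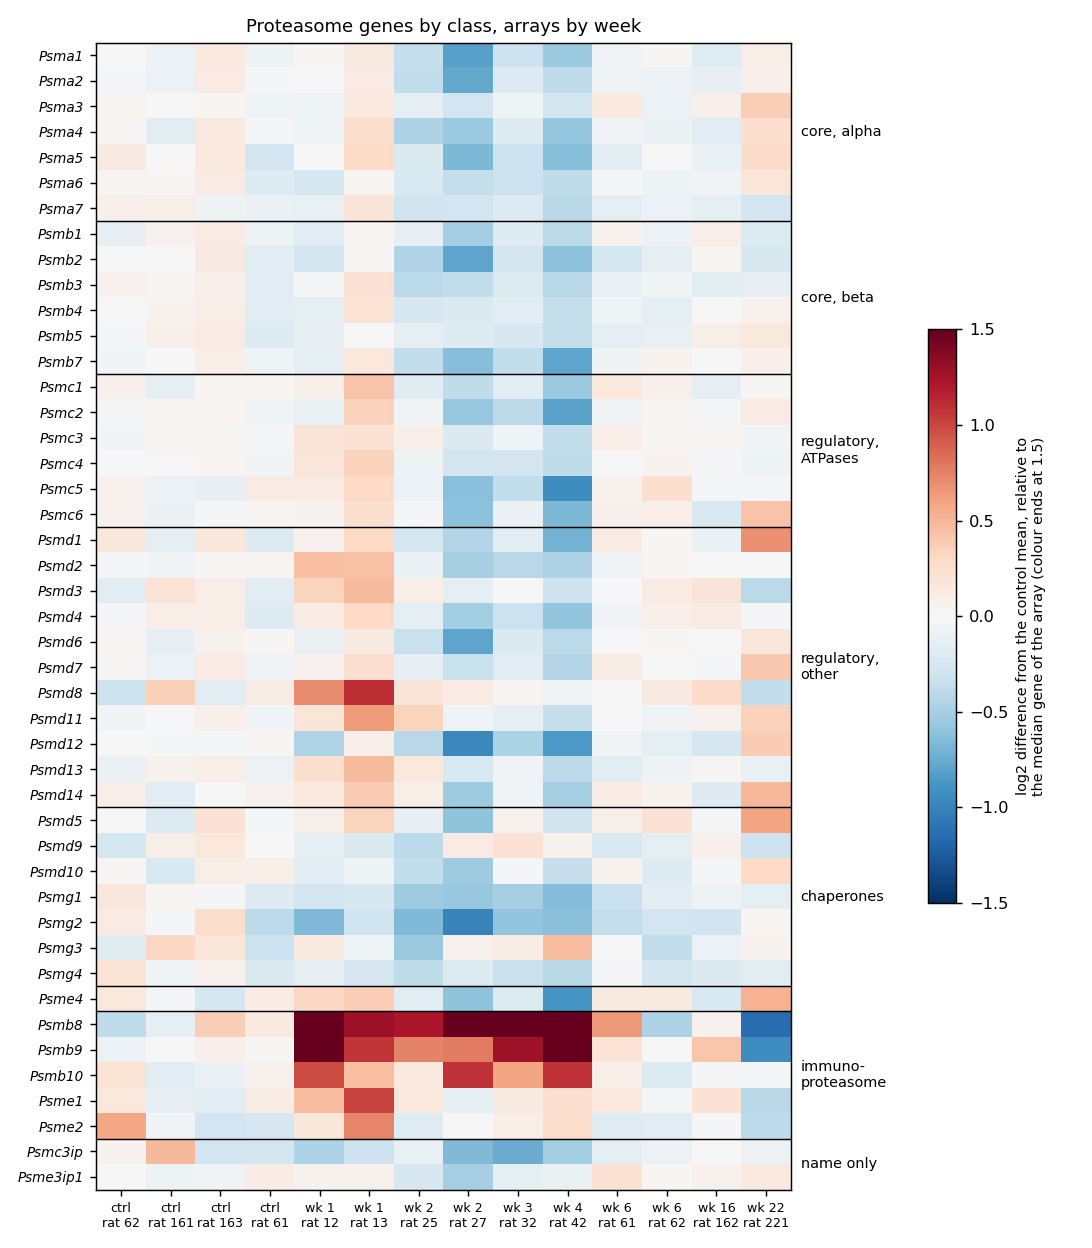
Log2 difference from the control mean, relative to the median gene of the array, for the 45 genes (rows, by class) on the 14 arrays (columns, by week and rat); the colour ends at 1.5. Psmb8, Psmb9 and Psmb10 are red from 1 to 4 weeks, and most constitutive rows are blue from 2 to 4 weeks and pale at 6 and 16 weeks.

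The constitutive genes differed more between weeks than the group comparison shows. The median of the 38 genes on an array, relative to the median gene, was 0.00 and 0.21 at 1 week, -0.20 and -0.50 at 2 weeks, -0.21 at 3 weeks and -0.42 at 4 weeks. It was -0.02 and -0.02 at 6 weeks, -0.03 at 16 weeks and 0.07 at 22 weeks. On the controls it lay between -0.06 and 0.10. The 1-week arrays thus lay within and above the range of the controls, and the 4 arrays of weeks 2 to 4 below it. Under quantile normalization the same medians were 0.23 and 0.30 at 1 week, -0.04 and -0.27 at 2 weeks, -0.10 at 3 weeks and -0.22 at 4 weeks, with the controls between -0.05 and 0.05, so that 1 array of 2 weeks came within their range and both 1-week arrays above it.

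At 1 week 1 of 38 constitutive genes was called higher and 0 lower, beside 9.43% and 13.9% of all genes, with a median change of 0.10. The called gene was Psmd8, with signals of 498, 794, 567 and 672 on the controls. The short-term arrays gave 935 and 1311 at 1 week, 690.0 and 623 at 2 weeks, 569 at 3 weeks and 533 at 4 weeks. The long-term arrays gave 619 and 684 at 6 weeks, 748 at 16 weeks and 498 at 22 weeks. The 1-week arrays were its highest of all, and the change was 0.91 (SE 0.20, adjusted p = 0.015), which held under 6 of 7 scalings. The classes stood in an order that was not tested: a median change of 0.27 for the further subunits of the regulatory particle (10 of 11 above the median gene), 0.21 for the ATPases (6 of 6), 0.07 for the alpha subunits (6 of 7), -0.03 for the beta subunits (3 of 6) and -0.18 for the chaperones (2 of 7). Quantile normalization raised the number of constitutive genes called higher at 1 week to 9, beside 9.03% of all genes.

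At 2 weeks 11 of 38 constitutive genes were lower (28.9%, beside 21.8% of all genes) and 0 higher, with a median of -0.31 and 36 of 38 changes below the median gene. By class these were 3 of 7 chaperones, 3 of 7 alpha and 3 of 6 beta subunits, 0 of 6 ATPases and 2 of 11 further subunits. The smallest p-values belonged to Psmg1 (-0.54 (SE 0.14, adjusted p = 0.0069)), Psmg2 (-0.83 (SE 0.21, adjusted p = 0.0077)), Psma2 (-0.56 (SE 0.16, adjusted p = 0.0088)) and Psmb2 (-0.62 (SE 0.17, adjusted p = 0.009)). Psma2, an alpha subunit, read 1904, 1810.3, 2123 and 1905 on the controls. Short-term values were 1778 and 2062 at 1 week, 1448 and 1046 at 2 weeks, 1483 at 3 weeks and 1311 at 4 weeks. Long-term values were 1870.0 and 1818 at 6 weeks, 1739 at 16 weeks and 2107 at 22 weeks. The 4 arrays of weeks 2 to 4 had the lowest values, and rat 27 the lowest of these.

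Of the 38 genes, 8 were lower at 2 weeks under all 7 scalings, beside 14.4% of all genes. Yet the calls rested on the array of rat 27: without it 0 of 45 members were lower at 2 weeks, and without that of rat 25 the count was 25. Each of these fits has 1 array at 2 weeks, which is taken to vary like the other groups. Between 2 weeks and 1 week 37 of 38 constitutive changes were negative, with a median of -0.47. None was called in limma (0 of 11064 genes were, smallest member adjusted p = 0.15). At an unadjusted p under 0.05, 25 of the 45 members and 1437 of 11064 genes passed.

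**Figure D4:**
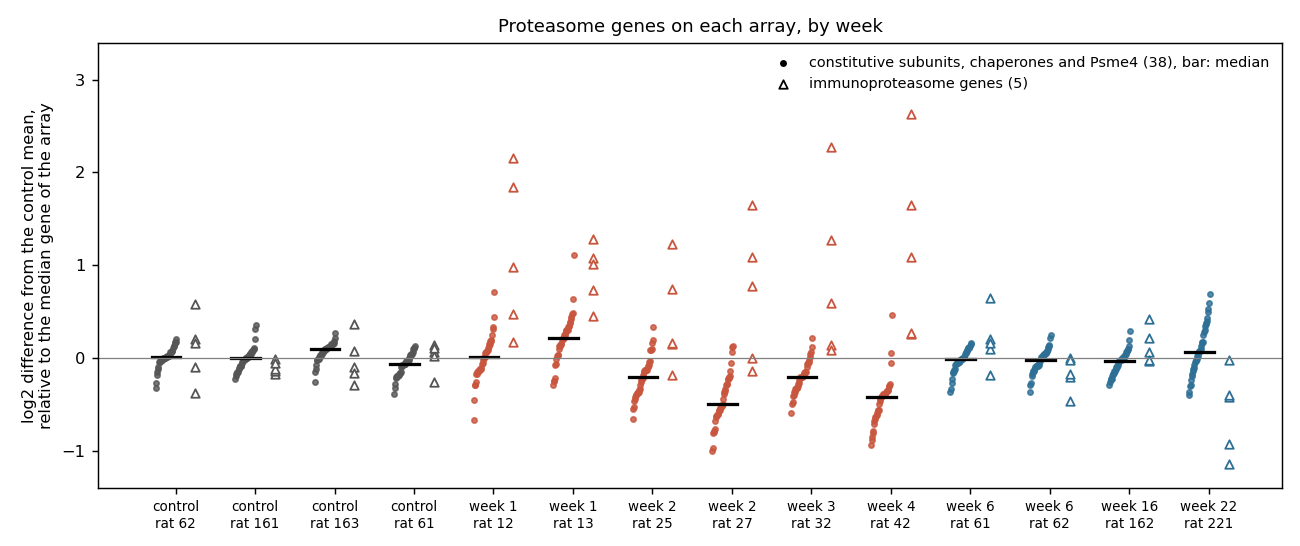
Log2 difference from the control mean, relative to the median gene of the array, for each array by week and rat; dots are the 38 constitutive genes with their median as a bar, triangles the 5 immunoproteasome genes. The bars lie at 0.00 and 0.21 at 1 week, between -0.50 and -0.20 at 2 to 4 weeks and between -0.03 and 0.07 at 6 to 22 weeks.

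When the 1-week arrays were left out, a choice made after seeing these values, 28 of 38 constitutive genes were lower at weeks 2 to 4 than in controls (median -0.32) and 0 higher, beside 28% of all genes lower and 18.7% higher. The count ranged from 8 under quantile normalization, beside 23.7% of all genes, to 34 with a common median of all probe sets, beside 38.4%. Psmb8, Psmb9 and Psmb10 were higher in that comparison too, but this count also depended on the scaling. The number of immunoproteasome genes called higher was 2 with a common median of all probe sets and 1 on the deposited scale. It was 3 under each of the other scalings. The width of the signal distribution, on which quantile normalization acts, also differed: the 75th percentile lay 1.98 to 2.23 above the median on the log2 scale of the short-term arrays and 2.22 to 2.38 on the controls, and its part in these counts was not tested.

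**Figure D5:**
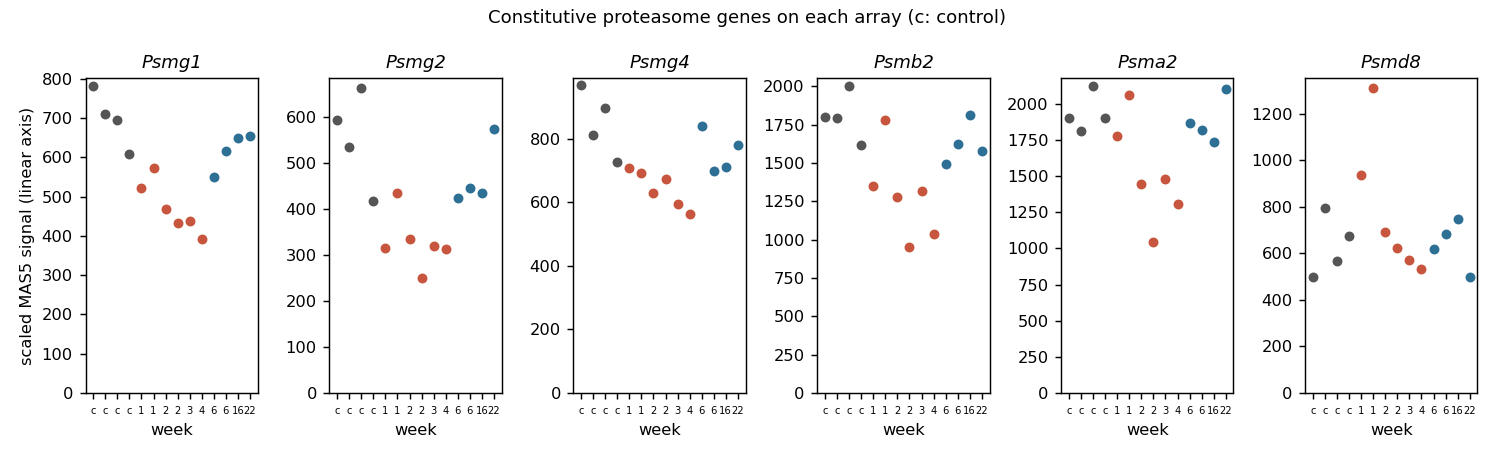
Scaled MAS5 signal on a linear axis from 0 for 6 constitutive genes, 1 point per array, ordered by week (c: control). Psmg1 and Psmg4 show all 6 short-term arrays below the 4 controls, Psmb2 and Psma2 are lowest in rat 27 at 2 weeks, and Psmd8 is highest on the 1-week arrays.

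In long-term muscle 0 of 38 constitutive genes were called against control, as were 0 of all genes, and their changes lay between -0.22 and 0.23 with a median of 0.02. Of the 38 genes, 0 lay apart from the controls without overlap on the long-term arrays in either direction, beside 1.21% of all genes lower and 0.949% higher. Against short-term muscle 8 of 38 were higher (21.1%, beside 26.2% of all genes) and 0 lower, with a median of 0.23. Those with the smallest p-values were Psmg2 and Psmg1 (above), Psmd12 (0.49 (SE 0.19, adjusted p = 0.017)) and Psma6 (0.26 (SE 0.12, adjusted p = 0.023)). None of the 8 was higher under all 7 scalings. The 22-week array stood apart in some genes: Psmd1, the large scaffold of the regulatory particle, read 1356 there and 883, 828 and 743 on the other long-term arrays, while Psmb8 and Psmb9 had their lowest values of all. Psmd1 was picked after its values were seen. In rats 61 and 62 the median right minus left difference of the 38 genes at 6 weeks was 0.03 and -0.03, with 9 genes higher and 8 lower on the tenotomized side in both rats.

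Partners of the proteasome outside the name rule gave 6 of 19 measured genes lower and 0 higher in short-term muscle (median -0.16). Ubqln4, a shuttle that carries ubiquitin-tagged proteins, had -1.32 (SE 0.15, adjusted p = 1.1e-05). Nfe2l2 had -0.69 (SE 0.18, adjusted p = 0.0024) and Nfe2l1 -0.59 (SE 0.17, adjusted p = 0.003); both are transcription factors, and Nfe2l1 is known to raise proteasome genes when the protease is inhibited. At 1 week 3 of 19 were lower, beside 13.9% of all genes, and 2 higher, beside 9.43%. The lower genes were Ubqln4 (-1.45 (SE 0.17, adjusted p = 5.2e-04)), Nfe2l1 (-0.70 (SE 0.21, adjusted p = 0.021)) and Nfe2l2 (-0.59 (SE 0.21, adjusted p = 0.04)). The higher genes were Akirin2, which carries proteasomes into the nucleus (1.87 (SE 0.50, adjusted p = 0.027)), and Adrm1, a ubiquitin receptor of the regulatory particle (0.71 (SE 0.20, adjusted p = 0.044)), and neither was called with either 1-week array left out. At 2 weeks 9 of 19 were lower and 0 higher, beside 21.8% and 16.2% of all genes, and without rat 27 the number lower was 3.

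The supply of ubiquitin and the p97 segregase had 4 of 14 genes lower and 0 higher in short-term muscle (median -0.14), among them the conjugating enzymes Ube2d1 (-1.22 (SE 0.19, adjusted p = 9.0e-05)), Ube2d2 (-0.29 (SE 0.11, adjusted p = 0.0068)) and Ube2b (-0.52 (SE 0.18, adjusted p = 0.009)). Muscle ubiquitin ligases had 4 of 13 lower and 0 higher (median -0.15): Asb2 (-1.23 (SE 0.21, adjusted p = 1.7e-04)), Ubr2 (-0.69 (SE 0.19, adjusted p = 0.0034)) and Ubr4 (-0.72 (SE 0.24, adjusted p = 0.01)) had the smallest p-values. Without the 1-week array of rat 13 the number of ubiquitin supply genes lower was 7. The shares lower in these 3 lists stood beside 26.5% of all genes. None of the 3 lists held a gene called higher in short-term muscle. The ligases differed by week: their median change was 0.20 at 1 week and -0.69 at 2 weeks. At 1 week 2 of 13 were lower and 0 higher, beside 13.9% and 9.43% of all genes. At 2 weeks 5 were lower and 0 higher, beside 21.8% and 16.2%.

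Genes of class I antigen presentation, the pathway that the immunoproteasome feeds, had 7 of 14 measured members higher and 0 lower in short-term muscle (median 0.74), beside 17.9% of all genes higher. Pdia3, an oxidoreductase of the peptide loading complex, had 1.64 (SE 0.16, adjusted p = 1.1e-05), RT1-M3-1 1.56 (SE 0.22, adjusted p = 1.6e-04) and Tap1, a subunit of the peptide transporter and a neighbour of Psmb9 in the major histocompatibility complex, 1.61 (SE 0.24, adjusted p = 2.3e-04). By week the list was mixed. At 1 week 4 of 14 were higher and 1 lower, Canx (-0.39), beside 9.43% and 13.9% of all genes. At 2 weeks 6 were higher and 2 lower, RT1-A3 (-1.01) and RT1-CE5 (-0.91), beside 16.2% and 21.8%. RT1-A1, RT1-A2 and RT1-CE1 of this list could not be tested. Interferon response genes had 12 of 24 higher and 0 lower (median 1.26), led by Ifitm1 (2.63 (SE 0.32, adjusted p = 4.6e-05)), Lgals3bp (2.77 (SE 0.36, adjusted p = 7.0e-05)) and the transcription factor Irf1 (1.22 (SE 0.16, adjusted p = 1.1e-04)). At 1 week 16 of 24 were higher, beside 9.43% of all genes, among them Mx2, an antiviral GTPase, with 6.22 (SE 0.63, adjusted p = 2.8e-04). These calls rested on rat 12, whose array lay above that of rat 13 for 22 of the 24, by a median of 1.16 on the log2 scale. Mx2 read 2409 in rat 12 and 375 in rat 13, and without rat 12 the number called was 4, in a fit with 1 array at 1 week. In long-term against short-term muscle 8 of 14 and 13 of 24 were lower, beside 17.5% of all genes. The first was 5 with either 6-week tenotomized array left out, and the second 8 without the 22-week array.

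Marker lists of several cell types were set beside these genes on the same arrays. In short-term against control muscle 17.9% of all genes were called higher and 26.5% lower. Macrophage markers were higher in short-term muscle in 18 of 19 measured genes (median 1.87), with summed signals of 2144 to 4220 on the controls, 6713 to 13894 on the short-term and 1733 to 4478 on the long-term arrays. Of the lymphocyte markers 6 of 18 could be tested and 3 were higher (1 to 3 in fits without an array), with sums of 123 to 225, 217 to 363 and 129 to 201. One of those called higher, Cd3d, lay at the floor on all 4 controls. It passed the filter only through short-term arrays (34.2, 25.5, 39.8 and 25.6), the group where it is high, so its call adds no evidence. Fibroblast markers were higher in 10 of 12 genes, with sums of 12621 to 17742, 41915 to 70068 and 5344 to 21395. Endothelial markers had 1 of 9 lower and 0 higher. Of the soleus fibre markers, which lay near the top of the signal range, 0 of 14 were called. The part of these cells in the changes of Psmb8, Psmb9 and Psmb10 was not tested.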

How the data were processed

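The authors deposited 1 signal per probe set and array, on a linear intensity scale, computed with MAS5 per the submitters' processing notes; the scaling target and detection calls are not given in the sources used here. The 45 genes and all lists were chosen with earlier results of these data known. Signals of 31099 probe sets on 14 arrays were taken to log2, the 57 control probe sets were left out, arrays were shifted to a common median, and values were raised to the pooled 25th percentile (9.69). Genes above the pooled 40th percentile (22.0) on at least 4 arrays were tested, 11064 of 14217, after centring each array on their median; signals printed are on that scale. Of the probe sets, 20826 carried 1 symbol, 436 several and 9780 none, in a platform annotation matched to GRCr8 by gene ID for all 45 genes.

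Groups (4 controls, 6 short-term, 4 long-term), time points and a slope on log2 week were fitted with limma 3.58.1 in R 4.3.3 with an intensity trend, with Benjamini-Hochberg adjustment at 0.05; the fit was tested on simulated data. Weeks 3, 4, 16 and 22 hold 1 array each and have no test. Ratios of paired subunits used exact 2-sided permutation tests; that of Psmb9 to Psmb6 could not be computed because Psmb6 has no single-symbol probe set. Genes given by array come from the immunoproteasome genes, their partners and, per comparison, up to 4 other members per direction with the smallest p among those called; of other lists, up to 3 per direction. Alternatives were 6 other scalings, floor, filter, probe set rule, samples and left-out arrays (for the other gene lists, left-out arrays were added after seeing the data). Rats 61 and 62 link control and long-term muscles. Deviations from the means of the time points (controls or 6 weeks) correlated within them by 0.33 and 0.21. The 6-week mean is that of these 2 rats alone, so the 2 values are not independent. A fit with the rat as a block was an alternative. Precision is limited by the number of arrays. Array pairs correlated between 0.85 and 0.94, with 0 identical pairs.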

Additional observations from a re-analysis of the deposited data

Results flagged for a closer look

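Single arrays stood apart from their group in 3 of 57 groups examined, where chance alone gives about 1 in 20. Psme2 was highest by a wide gap on the 1-week array of rat 13 (short-term replicate 2), with a signal of 1138 against 749 for the next (gap over range 0.652). Psmg2 was high on the 22-week array (long-term replicate 4), with 574 against 445 (gap over range 0.840). On the same array the median of the 38 constitutive genes was 0.07 against -0.02 for the next (gap over range 0.866).

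Of all 45 genes, 13 were called between long-term and short-term muscle in limma, the test of whether the changes from control at 6 to 22 weeks and at 1 to 4 weeks differ. Of all tested genes, 26.2% were called higher and 17.5% lower there. Among the immunoproteasome genes, their partners and the members with the smallest p-values, 8 were called there and also between short-term and control muscle. The difference was -2.10 for Psmb8, -1.31 for Psmb9 and -0.77 for Psmb10. It was 0.37 for Psmb7, 0.41 for Psmg2, 0.28 for Psmg1, 0.49 for Psmd12 and 0.26 for Psma6. Both changes share the control arrays, and both calls share the short-term arrays. Some of the 8 genes were picked for small p-values in these same comparisons, so their double calls are no further evidence. The share of all genes called in both comparisons was not computed.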

How the results depend on the processing

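Of the single genes and ratios past the threshold, 0 were reversed under the alternatives run. Medians and counts were not judged for reversal. Under quantile normalization the median of the 38 constitutive genes relative to all genes changed sign. It went from -0.18 to 0.03 for short-term against control and from 0.23 to -0.03 for long-term against short-term muscle. The ratio differences between long-term and control muscle, which were not past the threshold, changed sign with the array left out, from -0.13 to 0.03 for Psmb10 to Psmb7 and from -0.56 to 0.13 for Psmb8 to Psmb5 over 14 fits. The calls of Psmb8 and Psmb9 between short-term muscle and either other group were kept under 7 scalings and in 14 fits without 1 array, while counts of members called moved with the scaling (the cause was not tested). In the fit as described, 11 members were lower and 3 higher in short-term muscle than in control, 10 higher and 3 lower in long-term than in short-term muscle, 4 higher and 0 lower at 1 week, 12 lower and 2 higher at 2 weeks, and 2 had a negative and 0 a positive slope. The shares of all genes in that fit are given above with each comparison, and they moved with the scaling too. With a common median of all probe sets 29 members were lower in short-term muscle, 34 higher in long-term than in short-term muscle, 7 lower at 1 week, 35 lower and 1 higher at 2 weeks, and 7 had a positive slope. The shares of all genes, in the same order, were 39.6%, 42.4%, 28.8%, 37.7%, 9.84% and 29.9%. On the deposited scale 19 members were lower in short-term muscle, 1 lower and 2 higher at 1 week, 38 lower and 0 higher at 2 weeks, and 0 had a negative slope. Here the shares of all genes, in the same order, were 29.2%, 16.3%, 4.73%, 40.4%, 6.16% and 2.89%. After quantile normalization 3 members were lower in short-term muscle, 5 lower and 1 higher in long-term than in short-term muscle and 12 higher at 1 week, and the Psmb10 to Psmb7 difference was 0.81. Of all genes, 22.2% were lower in short-term muscle, 17.6% lower and 20.7% higher in long-term than in short-term muscle, and 9.03% higher at 1 week. With a common 2% trimmed mean 4 members were lower in short-term muscle and 1 higher in long-term than in short-term muscle. With the median difference from the control mean set to 0 on each array, chosen after seeing the data, these were 6 and 2. The shares of all genes were 18.2% and 17.1% with the trimmed mean and 20.4% and 19.9% with the control mean as reference. Without the filter 17 members were lower in short-term muscle, 19 higher in long-term than in short-term muscle, 1 lower at 1 week, and 28 lower and 1 higher at 2 weeks, and with the mean of all probe sets of a gene 17 were lower in short-term muscle, 1 at 1 week and 22 at 2 weeks. With only the 2 groups compared in the fit 5 were higher in long-term than in short-term muscle. Without the 1-week arrays, chosen after seeing the data, 30 were lower in short-term muscle, 31 higher in long-term than in short-term muscle, and 1 had a negative and 5 a positive slope. Of all genes, 28% were lower in short-term muscle in that setting. Shares of all genes are not given for its other counts. Nor are they given without the filter, with the mean of probe sets or with only 2 groups. Those counts cannot be set against all genes.

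Leaving out 1 array at a time gave 6 to 24 members lower in short-term muscle (24 without short-term replicate 2, rat 13), 1 to 28 higher in long-term than in short-term muscle (28 without that array, 1 without long-term replicate 4), 2 to 6 higher and 0 to 1 lower at 1 week, 0 to 2 higher and 0 to 25 lower at 2 weeks, 0 to 11 lower at 2 weeks than at 1 week (11 without short-term replicate 3), and 0 to 2 with a negative and 0 to 1 with a positive slope. The Psmb10 to Psmb7 difference lay between 0.92 and 1.24 for short-term against control and between -1.29 and -0.98 for long-term against short-term muscle, with an adjusted p of 0.054 in the exact permutation test without any 1 control or any 1 long-term array, respectively. With the rat as a replicate block, whose estimated correlation was 0.49, 14 members were lower and 3 higher in short-term muscle and 13 higher and 3 lower in long-term than in short-term muscle; the block moved no count of calls by over 1.5 times. In the pairs of rats 61 and 62 alone with the block 0 members were called. For the left-out arrays and the block, shares of all genes are not given, so these counts cannot be set against all genes.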
